A study of Mus musculus with 16 samples.

Results

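The guanylate-binding proteins (GBPs) and immunity-related GTPases (IRGs) of the mouse were followed through 16 PDA30364 tumors as a family of 10 genes, named Gbp2, Gbp3, Gbp4, Gbp5, Gbp6, Gbp7, Igtp, Irgm1, Irgm2 and Iigp1. A gene was read from the probe sets annotated to it alone, and the probe set with the highest mean over the 16 arrays represented it, which gave values for 8 of the 10 genes among 18193 named genes on the array. Gbp4 was reached only by a probe set that it shares with Gbp8, and no probe set was listed for Gbp5 in the annotation used here. PDA30364 is a mouse line of pancreatic ductal adenocarcinoma, and its tumors grew under the skin of the flank of C57BL/6-Ly5.1 mice that were 6 to 12 weeks old at injection. The 4 groups of 4 arrays were control (vehicle and control IgG), anti-CD40 Ab (vehicle and an agonist CD40 antibody of the mIgG1 class), GEM (gemcitabine, a nucleoside analog that blocks DNA synthesis, and control IgG) and GEM/anti-CD40 Ab (both agents). GEM was given at 120 mg per kg on treatment days 1, 5 and 12, antibody doses fell on days 3 and 4, on day 6 and on day 14, and tumors were taken on day 22 or 23 after inoculation. RNA came from pieces of whole tumor, so that each value sums over tumor cells, immune cells and stroma, and fewer cells of a type cannot be told apart from less RNA per cell. All mice carried tumors of the same line, and the titles of GEM replicates 3 and 4 show the same animal number, while the series describes 4 animals in each group. If these are 2 pieces of 1 tumor, GEM holds 3 mice, and p-values measure only the spread between arrays.

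GBPs and IRGs are large GTPases that assemble on membranes of vacuoles holding bacteria and parasites, open them or mark them for autophagy, and feed bacterial products to inflammasomes. Most of them are barely made at rest and are switched on by interferons, above all by interferon gamma from T cells and NK cells, through IRF1 and other transcription factors that bind interferon-response DNA elements. In a tumor they are made by cancer cells, macrophages and endothelium alike, so their level is commonly read as a trace of interferon acting on the tissue rather than as the mark of a single cell type.

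The DNA just upstream of these genes carries the letters that the interferon-activated factors are known to bind. In RefSeq promoter windows of build GRCm38.p6, which run from 250 bases before to 50 bases after a transcript start of the gene, 7 of the 10 members had a window. The 7 were Gbp2, Gbp3, Gbp5, Gbp7, Igtp, Irgm1 and Irgm2. The core of the interferon-stimulated response element, searched as GAAANNGAAA on both strands (its other strand reads TTTCNNTTTC), was found in all 7, against 3.44% of all 32851 windows and 3.99% of 27025 genes. The gamma-activated site, searched as TTCNNNGAA, which is its own complement, was found in 4 of the 7, namely Gbp5, Gbp7, Igtp and Irgm2, against 8.3% of all windows and 9.55% of genes. Both motifs stood together in the windows of those 4 genes and in 0.54% of all genes. The 110 bases that end just before the start of the window's transcript are shown for the 6 measured members with a window, because the response element lies within them in each, and for Irgq, an IRG relative that stayed between 7.86 and 8.31 log2 units on all 16 arrays and whose window held neither motif. Capitals mark the matches to either motif, and each sequence is read 5′ to 3′ along the gene's strand.
Gbp2 (chr3:142620553-142620662, plus strand): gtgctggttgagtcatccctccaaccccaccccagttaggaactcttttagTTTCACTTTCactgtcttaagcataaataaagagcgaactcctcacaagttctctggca
Gbp3 (chr3:142559934-142560043, plus strand): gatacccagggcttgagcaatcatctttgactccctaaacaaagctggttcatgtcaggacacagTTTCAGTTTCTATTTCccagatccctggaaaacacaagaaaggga
Gbp7 (chr3:142530226-142530335, plus strand): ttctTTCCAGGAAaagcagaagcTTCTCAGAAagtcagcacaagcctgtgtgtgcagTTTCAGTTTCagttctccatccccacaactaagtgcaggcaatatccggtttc
Igtp (chr11:58199446-58199555, plus strand): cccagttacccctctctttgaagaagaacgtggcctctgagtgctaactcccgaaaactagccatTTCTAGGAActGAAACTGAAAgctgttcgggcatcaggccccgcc
Irgm1 (chr11:48871421-48871530, minus strand): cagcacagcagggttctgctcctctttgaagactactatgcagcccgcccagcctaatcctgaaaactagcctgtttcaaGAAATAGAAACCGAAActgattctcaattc
Irgm2 (chr11:58214867-58214976, plus strand): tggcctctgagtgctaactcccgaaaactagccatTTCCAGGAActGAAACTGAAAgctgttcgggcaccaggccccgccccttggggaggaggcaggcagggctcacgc
Irgq (chr7:24530538-24530647, plus strand): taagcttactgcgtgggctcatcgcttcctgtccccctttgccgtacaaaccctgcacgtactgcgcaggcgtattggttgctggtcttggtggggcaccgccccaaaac
The response element began 59 bases before the start in Gbp2, 45 in Gbp3, 53 in Gbp7, 34 in Igtp, 30 in Irgm1 and 64 in Irgm2. In Gbp3 a further match began 39 bases before the start and in Irgm1 24 bases before it, each overlapping the first. Gbp3 has 2 windows, and the one shown starts 28 bases inside the outermost start of the gene, so that from that outer start its matches begin 17 and 11 bases upstream. The other Gbp3 window, whose start lies 340 bases inside, held no response element. In Igtp and Irgm2 a gamma-activated site stood just upstream of the response element, and these neighboring genes shared an unbroken run of 61 bases. That run does not span both motifs, since the gamma-activated site reads TTCTAGGAA in Igtp and TTCCAGGAA in Irgm2. The longest run between any other pair of the 7 members was 13 bases, in Gbp3 and Gbp7. Gbp7 had gamma-activated sites that began 106 and 87 bases before its start. Lack of both motifs was not confined to a flat gene such as Irgq. The same 110 bases of Tap1 and of Ifi47, which moved with the members (values below), also held neither motif. A match is a description of these letters and shows no binding, and no factor was measured on this DNA.

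Across the 4 treatments, the 8 measured GTPase genes stood lowest in GEM tumors, higher in control tumors, and highest in tumors that had received anti-CD40 Ab with or without GEM. The mean of the 8 genes, taken per array, was 9.31 (SD 0.791, n = 4) in GEM, 10.01 (SD 1.12) in control, 11.15 (SD 0.221) in anti-CD40 Ab and 11.43 (SD 0.647) in GEM/anti-CD40 Ab tumors, so that GEM and control lay closer together than either group's SD. In no pair of groups did any of the 8 reach an adjusted p under 0.05, and 1, Igtp, rose with anti-CD40 Ab when all 16 arrays entered the fit, a call that was lost in 19 of 27 alternative settings. Control tumors fell into a high and a low pair for all 8 genes, and 1 GEM tumor stood apart from the other 3. Values are log2 intensities after RMA normalization, so that a difference of 1 is a doubling, and levels are compared between arrays within a gene and never between genes, since probes differ in brightness.

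**Figure D1:**
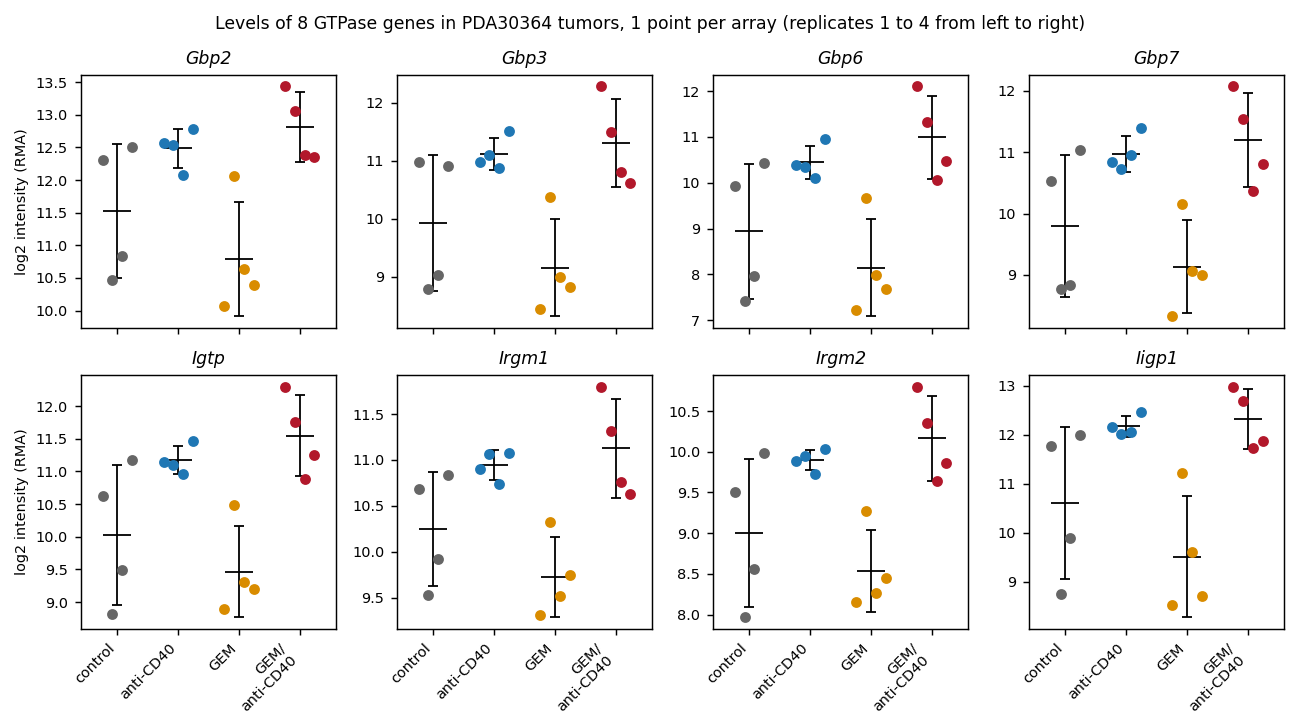
Level of each of the 8 measured genes (vertical axis, log2 intensity) in the 4 groups, with 1 point per array in replicate order, a bar at the mean and whiskers of 1 SD (n = 4). In each panel, control replicates 1 and 4 lie above replicates 2 and 3, GEM replicate 2 lies above the other GEM arrays, and the 4 anti-CD40 Ab arrays lie close together.

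Among the GBPs, Gbp2, a coat protein of parasite vacuoles and an aid to inflammasome activation, had log2 intensities of 12.30, 10.47, 10.83 and 12.51 in control replicates 1 to 4. It had 12.57, 12.53, 12.07 and 12.78 under anti-CD40 Ab, 10.07, 12.06, 10.63 and 10.39 under GEM, and 13.44, 13.06, 12.39 and 12.35 under GEM/anti-CD40 Ab. The anti-CD40 Ab arrays overlapped only the upper pair of controls, and all 4 GEM/anti-CD40 Ab arrays lay above all 4 GEM arrays. Gbp6, a GBP encoded in another cluster than Gbp2, had 9.94, 7.42, 7.97 and 10.43 in control tumors and 10.38, 10.35, 10.11 and 10.96 with anti-CD40 Ab. It had 7.23, 9.66, 7.99 and 7.69 with GEM and 12.11, 11.32, 10.06 and 10.48 with GEM/anti-CD40 Ab. Its arrays were ordered like those of Gbp2 within the control and GEM groups, over a wider range. Gbp3 ran from 8.44 in GEM replicate 1 to 12.29 in GEM/anti-CD40 Ab replicate 1. Gbp7, which has been tied to recruitment of the NADPH oxidase to vacuoles, ran from 8.32 to 12.08 between the same 2 arrays.

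Igtp, Irgm1 and Irgm2 are the regulatory IRGs, which keep the effector IRGs inactive on the cell's own membranes. Igtp had log2 intensities of 10.63, 8.81, 9.49 and 11.17 in control tumors, 11.15, 11.10, 10.96 and 11.47 under anti-CD40 Ab, 8.89, 10.48, 9.30 and 9.20 under GEM, and 12.30, 11.76, 10.89 and 11.25 under GEM/anti-CD40 Ab. All anti-CD40 Ab arrays but replicate 4 lay below the highest control array, and all lay above the other 3. Irgm1, also a regulator of autophagy, had 10.68, 9.53, 9.92 and 10.84 in control tumors and 10.90, 11.07, 10.74 and 11.08 with anti-CD40 Ab. It had 9.31, 10.32, 9.52 and 9.74 with GEM and 11.80, 11.32, 10.76 and 10.63 with GEM/anti-CD40 Ab, the narrowest range of the 8 genes. Irgm2 ran from 7.97 in control replicate 2 to 10.80 in GEM/anti-CD40 Ab replicate 1. Iigp1, the effector IRG that disrupts parasite vacuoles, had 11.77, 8.76, 9.89 and 11.99 in control tumors and 12.15, 12.01, 12.05 and 12.47 with anti-CD40 Ab. It had 8.52, 11.22, 9.61 and 8.71 with GEM and 12.98, 12.68, 11.73 and 11.88 with GEM/anti-CD40 Ab. Iigp1 was the 1 gene of the 8 whose representative had all anti-CD40 Ab arrays above all control arrays, by 0.02 between the nearest 2 arrays. On its second probe set the groups overlapped, with control replicate 4 at 11.43 and anti-CD40 Ab replicates 2 and 3 at 11.36 and 11.41.

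The shared probe set of Gbp4 and Gbp8 stayed between 5.30 and 5.70 on all 16 arrays, and its log2 changes ran from -0.14 to 0.18 in the 5 pairs of groups. Since the probe set that reports Gbp8 alone ran from 5.07 to 8.77, the shared probe set did not follow Gbp8, and no statement on Gbp4 is drawn from it. Gbp2, Gbp6, Gbp7 and Iigp1 had a second probe set each, and its log2 change differed from that of the representative by at most 0.19 in any comparison. The Gbp2 representative is of a kind whose probes may bind other transcripts, and the second Gbp2 probe set, which is not of that kind, gave 2.10 where the representative gave 2.02 in GEM/anti-CD40 Ab against GEM.

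Anti-CD40 Ab alone asks what the agonist antibody did without chemotherapy. All 8 genes had higher means than in control tumors, from 0.70 log2 units for Irgm1 to 1.57 for Iigp1, with a median of 1.16 (median of all 45037 probe sets, -0.01; 47.0% of them were above 0). None passed limma's moderated test (adjusted p = 0.807 for each), where 0% of all probe sets passed. At an unadjusted p under 0.05 there were 7 of the 8, all but Gbp2, against 3.07% of all probe sets that were higher at that level. The groups did not overlap for the representative of 1 gene, Iigp1, against 1.41% of all probe sets higher without overlap. They did overlap on the second Iigp1 probe set. The 95% interval of Iigp1, 0.15 to 2.99, shows how loosely 4 tumors against 4 fix the size. The median was 0.77 without control replicate 2 and 1.52 without control replicate 4.

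GEM alone asks what chemotherapy did by itself. All 8 means lay below control, from -1.09 for Iigp1 to -0.47 for Irgm2, with a median of -0.70 (all probe sets, 0, with 50.4% below 0). None passed (adjusted p = 0.861 to 0.898, limma), none had an unadjusted p under 0.05, and no gene's groups were free of overlap, against 0%, 2.62% and 1.63% of all probe sets lower by these measures. The interval of each of the 8 genes included 0, as from -1.72 to 0.60 for Igtp. GEM replicate 2 lay below the upper pair of control tumors and above the lower pair for each of the 8 genes. The median was -1.08 without that array and -0.31 without control replicate 4.

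**Figure D2:**
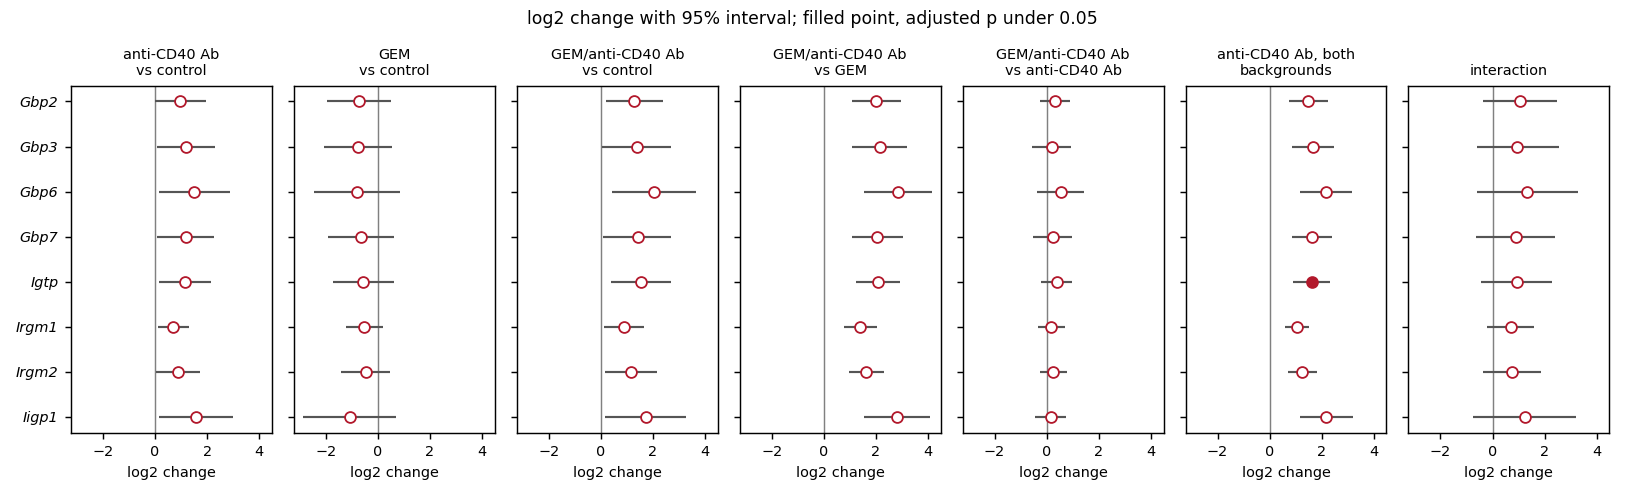
log2 change (horizontal axis) of the 8 genes in 7 comparisons, with points at the estimate and lines over the 95% interval from limma. Igtp over both backgrounds is the 1 filled point, which marks an adjusted p under 0.05, and the changes in GEM/anti-CD40 Ab against GEM lie between 1.41 and 2.85.

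GEM/anti-CD40 Ab against control asks what the combination did. The 8 genes were higher by 0.89 for Irgm1 to 2.05 for Gbp6, with a median of 1.39 (all probe sets, -0.02, with 42.4% above 0). None passed (adjusted p = 0.459 to 0.508, limma), where 0.0178% of all probe sets were called higher, and all 8 had an unadjusted p under 0.05, against 4.34%. No gene was free of overlap, against 2.25% of all probe sets higher without it, and for each gene the highest control tumor lay above the lowest GEM/anti-CD40 Ab tumor. This comparison shares its control arrays with the comparisons of each single agent.

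GEM/anti-CD40 Ab against GEM asks what the antibody added to chemotherapy, and here the differences were the largest of the 5 pairs for each of the 8 genes. Gbp6 was higher by 2.85 (SE 0.57, 95% interval 1.56 to 4.14), a 7.21-fold difference, and Iigp1 by 2.80 (SE 0.56, 1.54 to 4.07). Gbp3 was higher by 2.15 (SE 0.46), Igtp by 2.08 (SE 0.38), Gbp7 by 2.06 (SE 0.44) and Gbp2 by 2.02 (SE 0.42). Irgm2 and Irgm1 had smaller differences of 1.63 (SE 0.30) and 1.41 (SE 0.29), which Igtp, also a regulatory IRG, did not share. Every GEM/anti-CD40 Ab array lay above every GEM array for 8 of 8 genes, against 2.85% of all probe sets higher without overlap. None passed the test across all probe sets (adjusted p = 0.197 to 0.204, limma), where 0% passed and 0.197 was the smallest adjusted p of any of them. All 8 had an unadjusted p under 0.05, from 0.00038 for Igtp to 0.00118 for Gbp3, against 5.08% of all probe sets. The median of 2.07 (all probe sets, -0.02, with 41.0% above 0) became 1.82 without GEM/anti-CD40 Ab replicate 1 and 2.43 without GEM replicate 2.

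GEM/anti-CD40 Ab against anti-CD40 Ab asks what chemotherapy added to the antibody. The 8 means were higher by 0.15 for Iigp1 to 0.54 for Gbp6, with a median of 0.24 (all probe sets, -0.01, with 46.2% above 0), and none passed (adjusted p = 0.937 to 0.966, limma), where 0% of probe sets did. None had an unadjusted p under 0.05 in either direction, against 1.71% of all probe sets higher. The 95% intervals, such as -0.23 to 0.99 for Igtp and -0.45 to 0.75 for Iigp1, leave room for differences in either direction. Without GEM/anti-CD40 Ab replicate 1, which had the highest level of each of the 8 genes, the median was 0, and the sign turned for Gbp3 (-0.14), Gbp7 (-0.07), Irgm1 (-0.04) and Iigp1 (-0.07).

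Over both backgrounds, that is with GEM as a second factor and all 16 arrays in the fit, Igtp rose with anti-CD40 Ab by 1.61 log2 units (SE 0.33, 95% interval 0.91 to 2.32, adjusted p = 0.048, limma), a 3.06-fold difference. It was the 1 of 8 members called, against 0.280% of all probe sets called higher and 0.371% called in either direction. The other 7 lay just past the threshold, from Irgm1 with 1.06 (SE 0.22, adjusted p = 0.0525) to Gbp2 with 1.49 (SE 0.35, adjusted p = 0.0699). Gbp6 and Iigp1 had the largest differences, both 2.18 (SE 0.47; adjusted p = 0.0567 and 0.0564). All 8 had an unadjusted p under 0.05, against 5.73% of all probe sets, and the median was 1.62 (all probe sets, -0.02, with 41.3% above 0). The count of members called depended on the arrays used. It was 8 without control replicate 1 or without control replicate 4, 5 without GEM/anti-CD40 Ab replicate 3, and 0 without any single one of the other 13 arrays. The number of all probe sets called moved too. It was 167 with all 16 arrays, and 344, 269 and 358 in the fits that called 8, 8 and 5 members. Among fits that called 0 members it fell as low as 16, without GEM replicate 1. With GEM replicates 3 and 4, which carry the same animal number, averaged into 1 sample, Igtp had 1.54 with an adjusted p of 0.104 (limma), and 0 members were called. The difference itself stayed above 0 and moved less, since that of Igtp lay between 1.43 and 1.83 in all 27 alternative settings.

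The interaction term asks whether the antibody did more in tumors that had also received GEM. It was above 0 for all 8 genes, from 0.70 for Irgm1 to 1.34 for Gbp6, with a median of 0.95 (all probe sets, -0.01, with 47.4% above 0). None passed (adjusted p = 0.89 to 0.893, limma), where 0% of probe sets did, none had an unadjusted p under 0.05 (2.25% of all probe sets higher), and the interval of each included 0, as from -0.43 to 2.30 for Igtp. The median was 0.60 without control replicate 4 and 1.34 without control replicate 2. It was 1.49 without control replicate 2, anti-CD40 Ab replicate 2 and GEM/anti-CD40 Ab replicate 4. The means of skin markers were highest in the former arrays (8.57 and 6.62), and that of muscle markers in the last (12.14).

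The spread between tumors of a group differed with the treatment. In control tumors the SD of the 8 genes over 4 arrays ran from 0.62 for Irgm1 to 1.55 for Iigp1, with a median of 1.12, where the median of all named genes was 0.12. With anti-CD40 Ab alone it ran from 0.13 for Irgm2 to 0.36 for Gbp6, with a median of 0.25 (all named genes, 0.13). The SD in control tumors was 3.43 times that with anti-CD40 Ab for Gbp2 and 7.43 times for Iigp1, the lowest and the highest ratios of the 8. The median of that ratio over all named genes was 0.933, and 4.23% of genes had a ratio of 3.43 or more. In GEM tumors the SD ran from 0.44 to 1.23 and in GEM/anti-CD40 Ab tumors from 0.52 to 0.91. The ratios are given as a description, since 4 arrays fix an SD poorly and no test of the spread was made.

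**Figure D3:**
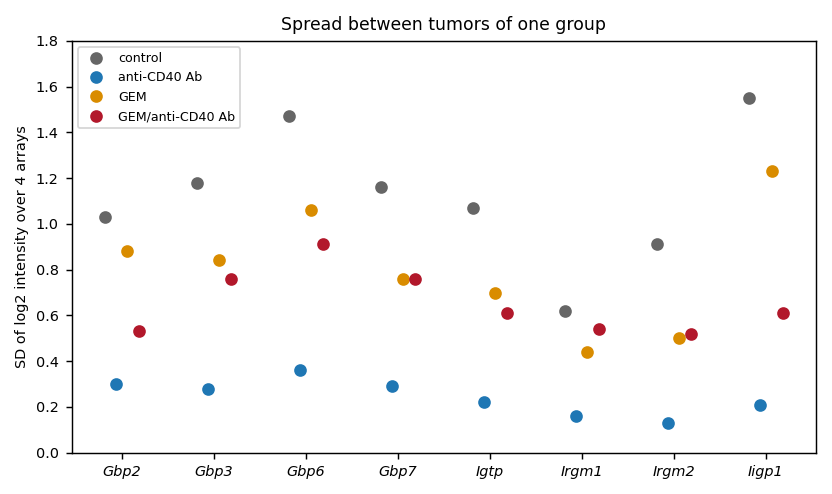
SD of the log2 intensity over the 4 arrays of each group (vertical axis, from 0) for the 8 genes. The control point is the highest of the 4 for each gene, up to 1.55 for Iigp1, and the anti-CD40 Ab point is the lowest, down to 0.13 for Irgm2.

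Within the control group the 8 genes shared an order of tumors. Replicate 4 was highest, then 1, 3 and 2, for 7 of the 8, and Gbp3 differed only in that replicate 1 stood 0.07 above replicate 4. Thus 21 of the 28 pairs of genes had the same order of the 4 control tumors. Of all named genes, 5.9% had an order found among the 8. For 8 of 8, replicates 1 and 4 lay above 2 and 3, as they did for 12.7% of all named genes. The distance from the highest to the lowest control tumor was 1.31 for Irgm1 (2.48-fold), 2.36 for Igtp (5.13-fold), 3.01 for Gbp6 (8.06-fold) and 3.23 for Iigp1 (9.38-fold). For every gene but Irgm1 this distance was larger than the difference between the means of GEM/anti-CD40 Ab and GEM tumors. That difference was 2.85 for Gbp6, 2.80 for Iigp1, 2.08 for Igtp and 1.41 for Irgm1. The gap between the upper and the lower pair was 1.88 for Iigp1 and 0.76 for Irgm1, the latter larger than the 0.16 between the upper 2 tumors. Control replicate 2, the lowest, also carried skin genes, with a mean of 8.57 log2 units over 9 keratinocyte markers, where control replicates 1, 3 and 4 had 4.38 to 4.57. Replicate 3 was low for the GTPases without them. The part of skin tissue in the low value of replicate 2 was not tested.

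The 8 genes also moved together when arrays were pooled over groups. After the mean of each group was subtracted, the correlation between pairs of the 8 genes over 16 arrays ran from 0.894 to 0.993, with a median of 0.962. It was 0.945 to 0.995 over the 8 arrays without the antibody and 0.858 to 0.998 over the 8 with it. The latter pool the narrow anti-CD40 Ab group with the wider GEM/anti-CD40 Ab group. Within the anti-CD40 Ab arrays replicate 4 was highest for each gene, but the order of the rest differed. Replicates 1 to 3 had 10.84, 10.72 and 10.95 for Gbp7 and 10.90, 11.07 and 10.74 for Irgm1. The mean of the 8 genes was 8.62, 10.44, 9.17 and 9.00 in the GEM arrays, so replicate 2 was higher than its group's next array by more than any 2 anti-CD40 Ab arrays differed (10.94 to 11.46). In GEM/anti-CD40 Ab arrays it was 12.22, 11.69, 10.83 and 10.98, with replicates 1 and 2 above all anti-CD40 Ab arrays and replicates 3 and 4 within or below their range. These correlations are descriptions over arrays that share their processing.

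**Figure D4:**
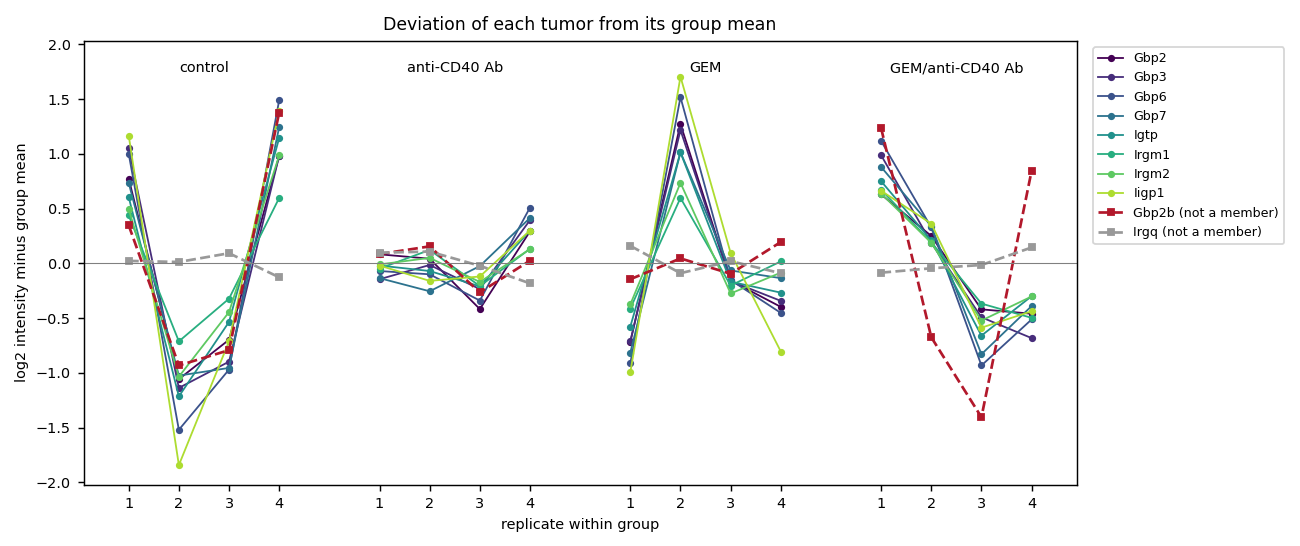
Deviation of each array from its group's mean (vertical axis, log2 units) for the 8 genes, for Gbp2b and for Irgq, by group and replicate. The 8 lines run together in control tumors, over 3.23 units for Iigp1. With anti-CD40 Ab, where Iigp1 spans 0.46 units, replicate 4 is highest for each gene and the order of the other replicates differs. Irgq stays near 0, and Gbp2b leaves the family in GEM replicate 2 and in GEM/anti-CD40 Ab replicates 2 and 4.

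Of the other GBP and IRG family genes listed for comparison, 6 had a probe set of their own, and none of the 6 passed in any comparison. Ifi47 (1.95, SE 0.41), the Iigp1 relative Gm4951 (2.97, SE 0.62) and Gbp8 (1.74, SE 0.43) were higher in GEM/anti-CD40 Ab than in GEM tumors without overlap (adjusted p = 0.197, 0.197 and 0.234, limma). Their correlations with the mean of the 8 genes were 0.95, 0.979 and 0.923 (16 arrays, group means subtracted). The probe set shared by Tgtp1 and Tgtp2, effector IRGs, was higher by 2.07 (SE 0.43, adjusted p = 0.197), and that shared by Gvin1 and Gm4070, very large GTPases, by 2.38 (SE 0.47, adjusted p = 0.197). Irgc1, an IRG of the testis, stayed between 5.19 and 5.65 on all arrays, and Irgq between 7.86 and 8.31, with log2 changes of -0.09 and 0.11 in the same comparison. Neither motif was found in the window of Ifi47.

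Gbp2b, the gene formerly called Gbp1, followed the family in control tumors and less in the treated ones. Its log2 intensities were 5.51, 4.23, 4.37 and 6.54 in control tumors, 4.95, 5.02, 4.60 and 4.89 under anti-CD40 Ab, 4.40, 4.59, 4.45 and 4.74 under GEM, and 6.77, 4.86, 4.13 and 6.38 under GEM/anti-CD40 Ab. Within the control group the order was that of the family, 4, 1, 3 and 2. GEM/anti-CD40 Ab replicates 1 and 4 stood high, the 4 anti-CD40 Ab arrays did not, and GEM replicate 2 stayed with its group. Its log2 change was -0.30 in anti-CD40 Ab against control and 0.99 (SE 0.51, adjusted p = 0.504, limma) in GEM/anti-CD40 Ab against GEM. Its correlation with the mean of the 8 genes was 0.638, which was rank 375 of 18185 genes compared. Its promoter window holds a response element that begins 137 bases before the window's transcript start and 106 bases before the gene's outermost start.

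Interferon gamma itself was near the lower end of the scale. Ifng had log2 intensities of 4.39, 3.59, 3.94 and 4.73 in control tumors, 4.77, 5.53, 4.87 and 5.36 under anti-CD40 Ab, 3.62, 4.02, 3.83 and 3.74 under GEM, and 8.39, 6.41, 4.92 and 5.08 under GEM/anti-CD40 Ab. The order of the control tumors was that of the GTPases, GEM replicate 2 was the highest GEM array as it was for them, and GEM/anti-CD40 Ab replicate 1 stood far above the rest. The difference in GEM/anti-CD40 Ab against GEM was 2.40 (SE 0.66, adjusted p = 0.256, limma), with no overlap. Irf1, the transcription factor between interferon gamma and many of its targets, had 10.71, 9.68, 9.97 and 10.94 in control tumors and 9.72, 10.51, 9.86 and 9.96 with GEM. It had 10.77, 10.74, 10.47 and 10.92 with anti-CD40 Ab and 11.77, 11.46, 10.71 and 10.87 with GEM/anti-CD40 Ab, higher than with GEM by 1.19 (SE 0.25, adjusted p = 0.197). Its control order was again 4, 1, 3 and 2. Over 16 arrays with group means subtracted, the correlation with the mean of the 8 GTPases was 0.657 for Ifng and 0.97 for Irf1, and 0.707 and 0.963 without the 2 arrays whose GTPase mean lay farthest from its group's.

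**Figure D5:**
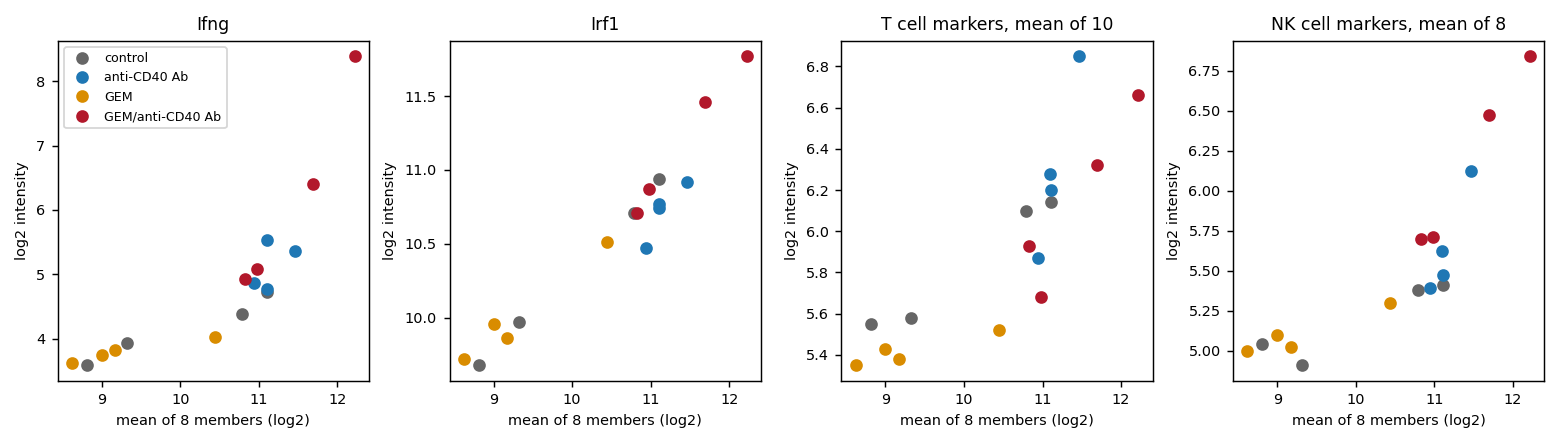
Mean of the 8 GTPase genes in each of the 16 arrays (horizontal axis, log2) against Ifng, Irf1, the mean of 10 T cell markers and the mean of 8 NK cell markers (vertical axes, log2), colored by group. The highest point for Ifng, at 8.39, and for Irf1, at 11.77, is GEM/anti-CD40 Ab replicate 1, which also has the highest GTPase mean, 12.22.

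The genes other than the 8 whose level followed the mean of the 8 most closely over the 16 arrays, again with group means subtracted, were led by Tap1 (0.987), a subunit of the peptide transporter of MHC class I loading, and Nlrc5 (0.982), a transactivator of MHC class I genes. Ido1 (0.98), Gm4951 (0.979), Psmb9 (0.978), H2-K1 (0.977), H2-D1 (0.975), Tap2 (0.97), B2m (0.97) and Irf1 (0.97) completed the 10 nearest of 18185 genes compared. Without the 2 arrays farthest from their group's GTPase mean, GEM replicate 2 and control replicate 4, the values of the 10 were 0.954 to 0.981. In GEM/anti-CD40 Ab against GEM, log2 changes of these 10 ran from 0.81 for B2m to 3.03 for Ido1.

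Of the interferon gamma signaling genes, 15 of 16 listed were measured and none passed in any of the comparisons, with a median log2 change of 0.43 in GEM/anti-CD40 Ab against GEM (all named genes, -0.02). The feedback inhibitor Socs1 (1.40, SE 0.35) and the transcription factor Batf2 (1.66, SE 0.37) were higher there without overlap (adjusted p = 0.237 and 0.212). Of the type I and III interferon ligands and receptors, 9 of 10 were measured, none passed, and the median was 0.11. Ifnb1 stayed between 3.90 and 4.59 on all arrays, near the background, so its flat level does not show that the gene was unchanged. The signal transducer Stat2 was higher by 0.88 (SE 0.20, adjusted p = 0.213). Of the genes that induce interferon gamma, 11 of 12 were measured, none passed, and the median was 0.22, with Il12b, a subunit of interleukin 12, higher by 1.19 (SE 0.36, adjusted p = 0.284).

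Of the autophagy-related partners, 16 of 17 were measured, none passed, and their median in GEM/anti-CD40 Ab against GEM was 0.03. The ubiquitin ligases Trim21 (0.90, SE 0.21, adjusted p = 0.218) and Rnf213 (0.90, SE 0.23, adjusted p = 0.241) were higher without overlap, while Becn1 (-0.14, SE 0.06) and Ulk1 (-0.16, SE 0.06), which start autophagosomes, overlapped. Of the inflammasome partners, 8 of 9 were measured, none passed, and the median was 0.58. Casp4, which encodes the noncanonical caspase that GBPs help to activate, was higher by 1.63 (SE 0.39, adjusted p = 0.218) and Casp1 by 1.24 (SE 0.41, adjusted p = 0.313), both without overlap. Gsdmd, which encodes the pore protein that these caspases cut, was higher by 0.31 (SE 0.10, adjusted p = 0.288) with overlap.

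Marker genes of other cells in the tumor are given beside the GTPases. Over both backgrounds the NK cell and killer cell gene Gzmb rose by 1.70 (SE 0.29, adjusted p = 0.03, limma), 1 of 8 measured markers of that list, whose level ranged from 4.91 to 5.41 (mean of 8 genes, log2) in control, 5.39 to 6.12 with anti-CD40 Ab, 5.00 to 5.30 with GEM and 5.70 to 6.84 with GEM/anti-CD40 Ab. Of 9 measured macrophage and monocyte markers 2 rose, Itgam by 0.96 (adjusted p = 0.039) and Lyz2 by 0.76 (adjusted p = 0.0444), with list means of 8.43 to 8.94 in control, 8.64 to 9.21 with anti-CD40 Ab, 8.45 to 8.99 with GEM and 8.86 to 9.84 with GEM/anti-CD40 Ab. In that comparison 0.280% of all probe sets were called higher. The probe sets called in either direction numbered 167, and 16 to 370 under the alternatives, through which these marker calls were not followed. Of 10 measured T cell markers none passed in that comparison, and their mean was 5.55 to 6.14 in control, 5.87 to 6.85 with anti-CD40 Ab, 5.35 to 5.52 with GEM and 5.68 to 6.66 with GEM/anti-CD40 Ab. In GEM/anti-CD40 Ab against GEM, where the GTPases differed most, no marker of the 3 lists passed, and the medians were 0.48 for T cells, 1.16 for NK cells and 0.64 for macrophages and monocytes. The T cell receptor subunits Cd3g (2.13, SE 0.38) and Cd3d (1.46, SE 0.29) were higher there without overlap (adjusted p = 0.197 for both), as were Cd2 (1.23, SE 0.37) and Cd3e (0.35, SE 0.09). Of the killer cell genes, Gzma (2.08, SE 0.43), Gzmb (1.92, SE 0.36) and Nkg7 (1.91, SE 0.34) were higher without overlap (adjusted p = 0.197 each). The difference of Gzma was as large as that of Igtp (2.08), and those of Gzmb and Nkg7 were a little below that of Gbp2 (2.02). Markers named for this comparison are those with the smallest p of their list in it, so they do not stand for the lists. The 8 NK cell markers ran from -0.20 to 2.08, with 1 below 0. The 10 T cell markers ran from -0.04 to 2.13, with 2 below 0. The lowest of the 8 GTPases was 1.41. Lyz2 (0.95, SE 0.20), Itgam (1.15, SE 0.27) and Cd68 (0.87, SE 0.20) were also higher without overlap. With group means subtracted, the correlation with the GTPase mean was 0.734 for the T cell list over 16 arrays, 0.905 over the 8 without the antibody and 0.871 over the 8 with it. For the NK cell list it was 0.727, 0.919 and 0.972, for the macrophage and monocyte list 0.449, 0.284 and 0.828, and for the skin keratinocyte list -0.524, -0.641 and -0.0641.

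Of the remaining lists none had a member that passed over both backgrounds, and their medians there were -0.02 for 8 dendritic cell markers, 0.48 for 9 endothelial markers, 0.20 for 9 fibroblast markers, -0.35 for 9 skin keratinocyte markers and 0.15 for 12 skeletal muscle markers. The 9 tumor epithelium markers had means of 11.36 to 12.07 on all 16 arrays, and a median of -0.05. Keratinocyte markers also stood at 6.62 in anti-CD40 Ab replicate 2 and at 5.46 in GEM replicate 4, and in the other arrays but control replicate 2 at 4.38 to 4.62. Muscle markers stood at 12.14 in GEM/anti-CD40 Ab replicate 4, at 7.85 in GEM replicate 4 and at 7.45 in control replicate 4, and at 4.84 to 6.73 elsewhere. Without control replicate 2, anti-CD40 Ab replicate 2 and GEM/anti-CD40 Ab replicate 4, the median of the GTPases was 0.79 in anti-CD40 Ab against control, 2.19 in GEM/anti-CD40 Ab against GEM and 1.56 over both backgrounds, where 0 members passed. With GEM replicate 4 left out as well, a choice made after the data were seen, it was 0.79, 2.12 and 1.48, again with 0 members past the test. The part of the immune cell content in the GTPase levels was not tested.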

How the data were processed

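RNA from 16 whole PDA30364 tumors (200 ng of total RNA each) was measured by the authors on Affymetrix mouse genome arrays, and the deposited values are RMA log2 intensities, background-corrected, normalized and summarized per probe set, with 2 decimals. RMA is the tool named in the submitters' processing notes, with no version stated there. The number of arrays limits the precision. Groups came from the sample labels. The 64 array controls were left out and 45037 probe sets were tested. Probe sets were named through the platform annotation and a RefSeq gene table (GRCm38.p6), with 1 symbol for 34945, several for 932 and none listed for 9160. Of those with 1 symbol, 34741 matched a gene identifier of the table. Pairs of groups were fitted on their 8 arrays, and the additive and interaction models on all 16, with limma 3.58.1 in R 4.3.3. Tests were two-sided with Benjamini-Hochberg adjustment over 45037 probe sets at 0.05, and intervals are 95%. limma was tested on simulated arrays. Promoter motifs were searched in RefSeq windows with Python. The members and the 15 comparison lists were chosen with earlier results of these data known. The rule for named genes took all members, Ifng and Irf1, up to 4 genes per list with the smallest p in GEM/anti-CD40 Ab against GEM, and the 10 genes nearest to the members' mean. Some genes of the lists are given by their counts only, and a gene fixed by the rule is not reported here. Alternatives were a joint fit, leaving out dim probe sets, a variance prior with trend and robust fit, weights per array, another scaling (75th percentile) or quantile normalization, averaging a gene's probe sets in place of choosing 1, no _x_at or _s_at representatives, a block for replicate numbers, merging GEM replicates 3 and 4, leaving out single arrays, and leaving out 3 arrays with skin or muscle genes, or 4 with GEM replicate 4. The 3 were control replicate 2 and anti-CD40 Ab replicate 2, highest for skin markers, and GEM/anti-CD40 Ab replicate 4, highest for muscle markers.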

Additional observations from a re-analysis of the deposited data

How the results depend on the processing

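The number of members called was 0 in each pair of groups and for the interaction under each alternative run, leaving out single arrays included (lowest 0, highest 0). Over both backgrounds, where 1 was called, the count was 8 with dim probe sets left out or with array weights, and 0 with a trended and robust variance prior, with 75th percentile scaling, with the replicate block, with GEM replicates 3 and 4 averaged, without the 3 arrays named for skin or muscle genes, and without GEM replicate 4 in addition, the last chosen after the data were seen. Leaving out single arrays gave 0 to 8. In most of these settings the number of all probe sets called moved as well, from 167. It was 327 with dim probe sets left out and 370 with array weights. It was 57 with the trended and robust prior, 51 with the replicate block and 19 with GEM replicates 3 and 4 averaged. The cause of these moves was not tested. Leaving out dim probe sets changes both the number of tests and the variance prior, and these were not separated. The sample labels do not state that the replicate numbers pair tumors. Deviations of arrays with the same number correlated between -0.266 and 0.273, and 10 of 24 pairs exceeded 0.1. Arrays with different numbers were not set beside them, so these values cannot decide whether the numbers pair tumors. The block thus changes this count without a stated paired design behind it. Igtp had an adjusted p of 0.0228 to 0.191 over its 27 alternatives. The sign turned in 4 cases, all in GEM/anti-CD40 Ab against anti-CD40 Ab without GEM/anti-CD40 Ab replicate 1, and leaving out single arrays gave -0.14 to 0.42 for Gbp3, -0.07 to 0.50 for Gbp7, -0.04 to 0.35 for Irgm1 and -0.07 to 0.34 for Iigp1. Over all probe sets, 167 were called over both backgrounds, with 16 to 370 under the alternatives, and 8 in GEM/anti-CD40 Ab against control, with 0 to 44. In GEM against control 0 were called, with 0 to 8, in anti-CD40 Ab against control 0, with 0 to 3, and in GEM/anti-CD40 Ab against GEM 0, with 0 to 1. The number of gene pairs with the same order of control tumors was 21 when a gene's probe sets were averaged and with quantile normalization, as in the values reported. GEM replicates 3 and 4 differed with an SD of 0.26 over all probe sets, within the 0.211 to 0.418 of the other 23 pairs of arrays within a group. Low intensities such as those of Ifng, Ifnb1, Il12b, Gbp2b and the Gbp4 and Gbp8 probe set lie near the background of the array, where RMA values understate differences.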
